A study of Mus musculus with 25 samples.

Results

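The response to early weaning that 4 groups of mouse pups had in common was read from jejunal mRNA in 25 libraries, 20 of them from early-weaned pups and 5 from suckling controls. Pups entered the study at postnatal day 14. The control group stayed with suckling and was taken at day 21. The other groups were weaned at day 15: the group labelled Weaned got no supplement that the labels name, HMOs got 2'-fucosyllactose (2'-FL) together with lacto-N-neotetraose (LNnT), and the last 2 groups got 2'-FL alone or LNnT alone, oligosaccharides that are abundant in human milk. Each group had 5 libraries, which are called Control1 to Control5, Weaned1 to Weaned5, HMOs1 to HMOs5, FL1 to FL5 and LNnT1 to LNnT5. Doses, strain, sex, litter and the age of the early-weaned pups at sampling are not given in the sources used here, so day of sampling and weaning cannot be told apart. The labels do not state whether libraries of a group stem from different animals, and the p-values therefore measure the spread between these samples only.

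In rodents the small intestine matures around weaning: the enterocytes of the suckling gut take up milk fat and milk proteins and carry lactase, which cleaves milk sugar, and are replaced by enterocytes that digest starch and sucrose. Paneth cells and secreted lectins such as those of the Reg3 family rise as solid food and a new microbiota arrive. Enterocytes also carry much of the body's first-pass metabolism through cytochrome P450 enzymes, carboxylesterases and conjugating enzymes, and they make part of the body's cholesterol.

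A gene's change is the log2 difference between the mean of the 4 early-weaned groups, each with the same weight, and the control group, from a single edgeR quasi-likelihood fit of all 25 libraries. A gene counted as changed at an adjusted p (Benjamini-Hochberg) under 0.05 over the 22131 genes tested. A gene counted as shared when each of the 4 groups differed from the controls the same way, judged by the largest of its 4 p-values, adjusted over the same genes. All 4 comparisons use the same 5 controls, so their agreement is not independent support. Levels are TMM-scaled CPM, counts divided by library size.

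Libraries held 58732979 to 89589183 counts. Several properties moved with the groups. Y-linked transcripts summed to at least 1 CPM in 13 of the 20 early-weaned libraries (4 Weaned, 3 HMOs, 4 2'-FL and 2 LNnT), but in 1 of 5 controls, Control2; the other libraries, at 0 to 0.271 CPM, are called libraries without Y-linked transcripts. Control2 also held Xist, which is made from the silenced X chromosome. The part of the pups' sex in the results was tested only through the fits given below. The summed share of 10 pancreatic acinar genes ran from 0.0825% to 0.996% of all counts in 6 libraries (Control2, Control3, Weaned1, FL5, LNnT1, LNnT2), with 0.0021% as the highest value among the other 19. On the first principal component FL1, LNnT1 and LNnT2 lay at 130.4, 190.5 and 159.5, while the other 22 libraries lay between -51.2 and 61.7. Each library held transcripts of small-intestinal enterocytes. Summed over the markers Vil1, Cdh17, Fabp2, Apoa4 and Alpi, the level was 21860 to 32780 CPM in controls and 14610 to 67540 CPM after early weaning. The label jejunum was not tested against other parts of the small intestine. Of 6 smooth muscle, 7 enteric neural, 6 fibroblast, 3 adipocyte, 6 erythroid and 3 skeletal muscle markers edgeR called 0 in the early-weaned mean (1 had an unadjusted p under 0.05; DESeq2 called 0 and limma voom 1). Among the 4 early-weaned groups, however, 5 of the 6 erythroid markers and 1 of the 3 skeletal muscle markers differed: the erythroid median change was 1.29 in Weaned, -0.73 in HMOs, -0.52 in 2'-FL and 0.08 in LNnT, with Hba-a1, a haemoglobin gene, at an adjusted p of 0.0357, and Acta1, skeletal actin, ran from 2.48 in Weaned to -1.05 in LNnT (0.0238). Their part in the differences among groups was not tested. Of 4 endothelial markers Pecam1 was called (log2 change -0.37 ± 0.11 SE, edgeR adjusted p = 0.0373), but not without Control1, Control3, Control4, Control5, Weaned3 or HMOs1.

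Over the mean of the 4 groups, 1700 genes changed, 803 of them higher (3.63% of those tested) and 897 lower (4.05%). Of these, 480 changed at least 2-fold. All but 8 of the 1700 had the same sign in each of the 4 groups. The number of calls depended heavily on the few controls: it fell to 450 without Control5, 470 without Control3, 865 without Control1 and 975 without Control4, and rose to 3281 without FL2. Far fewer genes met the demand that every early-weaned group pass on its own. These were 31 genes, 10 higher (0.0452% of genes tested) and 21 lower (0.0949%), and the count was 16 without Control3, 17 without Control5, 20 without Control4 and 53 without FL2. In 30 of the 31 the 20 early-weaned libraries did not overlap with the 5 controls, an arrangement seen in 0.253% of all genes tested with the early-weaned libraries above and in 0.813% with them below. A test for differences among the 4 early-weaned groups called 70 genes (0.316%). None of the 31 was among them, but the 31 were chosen in the same fit for a change in the same direction in every group. Their absence therefore does not measure how alike the groups were.

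The 31 shared genes kept their direction in all 40 other fits that were run, and 29 of them stayed past the threshold in the comparison of means in every one of these. Taf15 and Flywch1 each missed it in 1 fit, that of the libraries without Y-linked transcripts. By the stricter demand on every group, 6 of the 31 stayed shared without the 6 libraries with pancreatic transcripts, 13 with the Y-linked level as a covariate and 0 in edgeR among the libraries without Y-linked transcripts, where 176 genes had a largest p under 0.05 before adjustment. These 3 fits are given below in that order as the pancreatic and Y-linked fits. Among the libraries without Y-linked transcripts alone the log2 change was 5.52 for Reg3b (5.16 over all libraries), -3.17 for Mptx1 (-2.94) and -2.55 for Ass1 (-2.31). In these bulk samples, fewer cells of a type and less RNA per cell cannot be told apart.

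**Figure D1:**
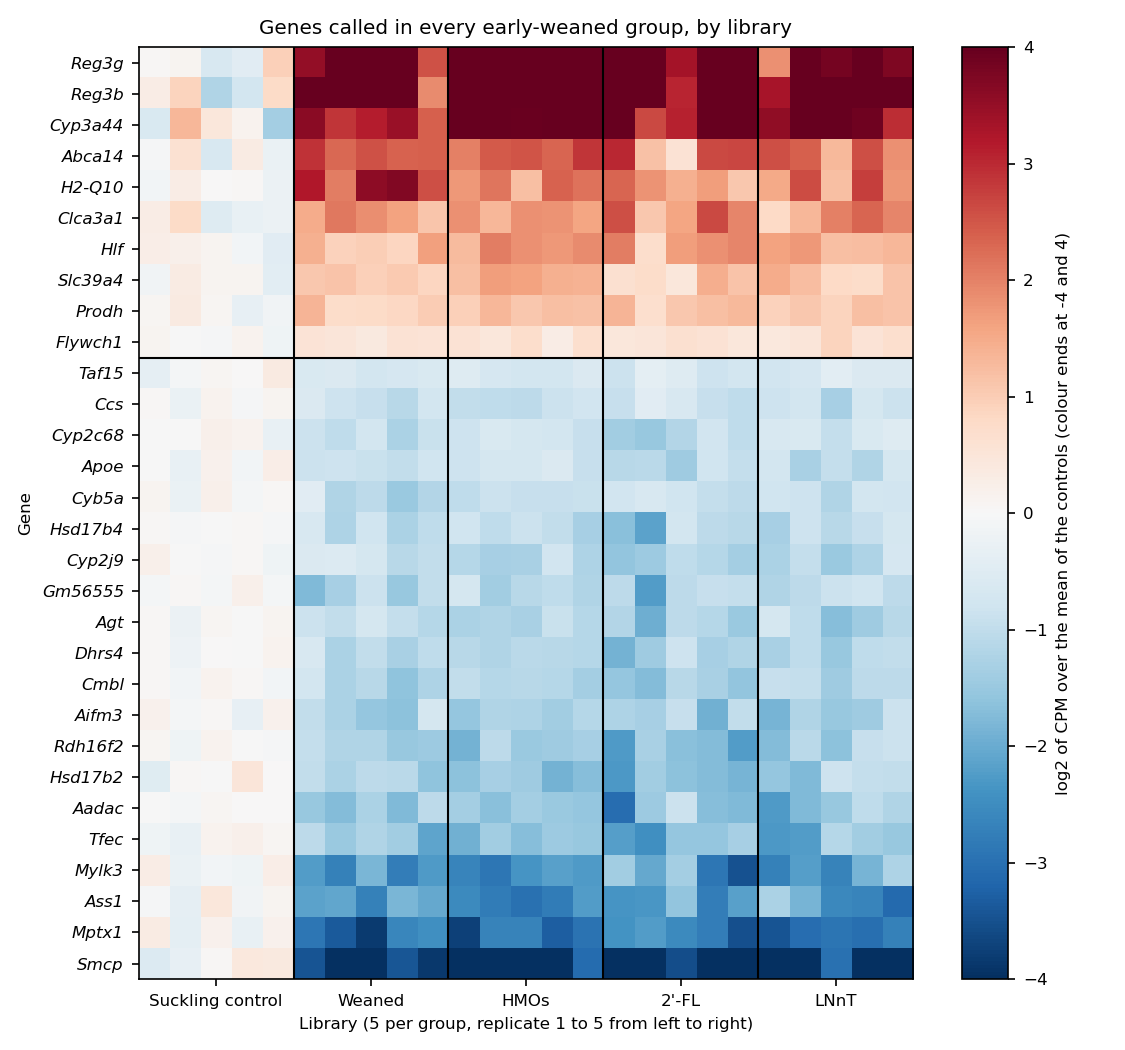
Rows are 30 of the 31 genes that passed in every early-weaned group, ordered by log2 change, and columns are the 25 libraries in groups of 5; colour gives the log2 ratio of the library's CPM to the mean of the controls, with the scale ending at -4 and 4. The 10 upper rows are red and the 20 lower rows blue in each early-weaned block. Abca14 is pale in FL3, where the library's level reached into the range of the controls. Flywch1 is pale in all early-weaned libraries without reaching that range.

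The largest shared rises were in the antimicrobial lectin genes Reg3b (GRCm39 chr6:78347640-78350449, plus strand) and Reg3g (chr6:78443252-78445855, minus strand), on the same chromosome. Their proteins are secreted C-type lectins of enterocytes and Paneth cells, and Reg3g is known to bind Gram-positive bacteria. Reg3b stood at 106.8, 163.1, 38.4, 52.4 and 147.4 CPM in Control1 to Control5. After early weaning its lowest, median and highest levels were 326.7, 3771 and 8340 CPM, so that no library overlapped with the controls. The change was 5.16 ± 0.63 (SE), or 35.7-fold (edgeR adjusted p = 2.24e-05; 0.00295 for the call in every group), with 4.58 in Weaned, 5.78 in HMOs, 5.93 in 2'-FL and 4.35 in LNnT. These 4 values did not differ past the threshold (adjusted p = 0.295). Within 2'-FL the library FL3 stood at 728.6 CPM and the other 4 at 6267 CPM or more.

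Reg3g had controls at 22.1, 22.9, 13.6, 15.7 and 41.7 CPM, and the early-weaned libraries 75.5 at the lowest, 987.9 at the median and 2806 at the highest. The groups did not overlap, and the lowest early-weaned library was LNnT1. The change was 5.32 ± 0.68 (adjusted p = 4.35e-05), with 4.51, 6.28, 6.16 and 4.34 in Weaned, HMOs, 2'-FL and LNnT, which did not differ past the threshold (adjusted p = 0.195). Reads that fit both paralogs may have been split between them, since the counting of such reads is not given in the sources used here. A further member of the family, Reg3a, went the other way, from 79.4 to 44.4 CPM on average (log2 change -0.87, adjusted p = 0.0411), a call that was lost without any 1 of the 5 controls (0.0643 to 0.145) and without Weaned2, Weaned4, Weaned5, HMOs1, HMOs2, HMOs3, HMOs4 or LNnT2.

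Because both genes rose together and lie as paralogs on 1 chromosome, the 150 bases before each annotated start are shown from RefSeq (GRCm38.p6, which is not the build of the counts), 5′ to 3′ on the gene's strand, with the letters TATAAA in capitals. Reg3b lies on the plus strand at chr6:78370735-78370884 of that build and Reg3g on the minus strand at chr6:78468875-78469024.
Reg3b: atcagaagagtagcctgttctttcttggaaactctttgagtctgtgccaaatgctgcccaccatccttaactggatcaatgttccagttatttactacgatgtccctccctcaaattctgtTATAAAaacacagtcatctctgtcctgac
Reg3g: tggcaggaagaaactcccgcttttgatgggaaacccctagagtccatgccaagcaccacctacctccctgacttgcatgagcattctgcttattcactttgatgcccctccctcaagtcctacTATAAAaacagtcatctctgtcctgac
The letters TATAAA begin 29 bases before the start in Reg3b and 27 in Reg3g, and the last 20 bases of the windows are the same. Searched on both strands in the 250 bases before the start, TATAAA was found in 8 of the 24 shared genes with a RefSeq window (33.3%: Mptx1, Reg3b, Reg3g, Rdh16f2, Apoe, Cyp3a44, Agt and H2-Q10) and in 14.3% of all 27025 genes with one. A match is a run of letters and not a binding site.

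Not all secreted defence genes rose. Of the 19 tested, 4 were called higher and 4 lower. Mptx1, the gene of a mucosal pentraxin (chr1:174158084-174160439, plus strand), had the smallest p-value of all shared genes. Its controls held 9.99, 6.04, 8.91, 6.43 and 8.96 CPM, against 0.542 at the lowest, 1.04 at the median and 1.67 at the highest after early weaning. The highest early-weaned library lay far below the lowest control, and the change was -2.94 ± 0.19 (adjusted p = 7.96e-10), between -2.66 in 2'-FL and -3.05 in HMOs. Its relative Mptx2, a pentraxin of Paneth cells, went the other way. In controls Mptx2 ranged from 0.27 to 3.71 CPM and after early weaning from 0.322 to 126.9 CPM, so the groups overlapped, and its change of 4.55 ± 1.09 (adjusted p = 0.0151) lost the call without Control3 (0.0615) or Control5 (0.0623) and grew to 5.39 without Control2. Retnlb, the resistin-like protein of goblet cells, was at 0 in all 5 controls and at 0 to 1.87 CPM after early weaning, which allows no fold; it was not called without Control3, Control5 or LNnT2. The list's counts rested on single controls: higher calls fell to 2 without Control3 or Control5, and lower calls to 1 without Control3 or Control5 and 2 without Control1 or Control4. In the pancreatic and Y-linked fits 3, 4 and 2 genes were called higher and 1, 2 and 2 lower.

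**Figure D2:**
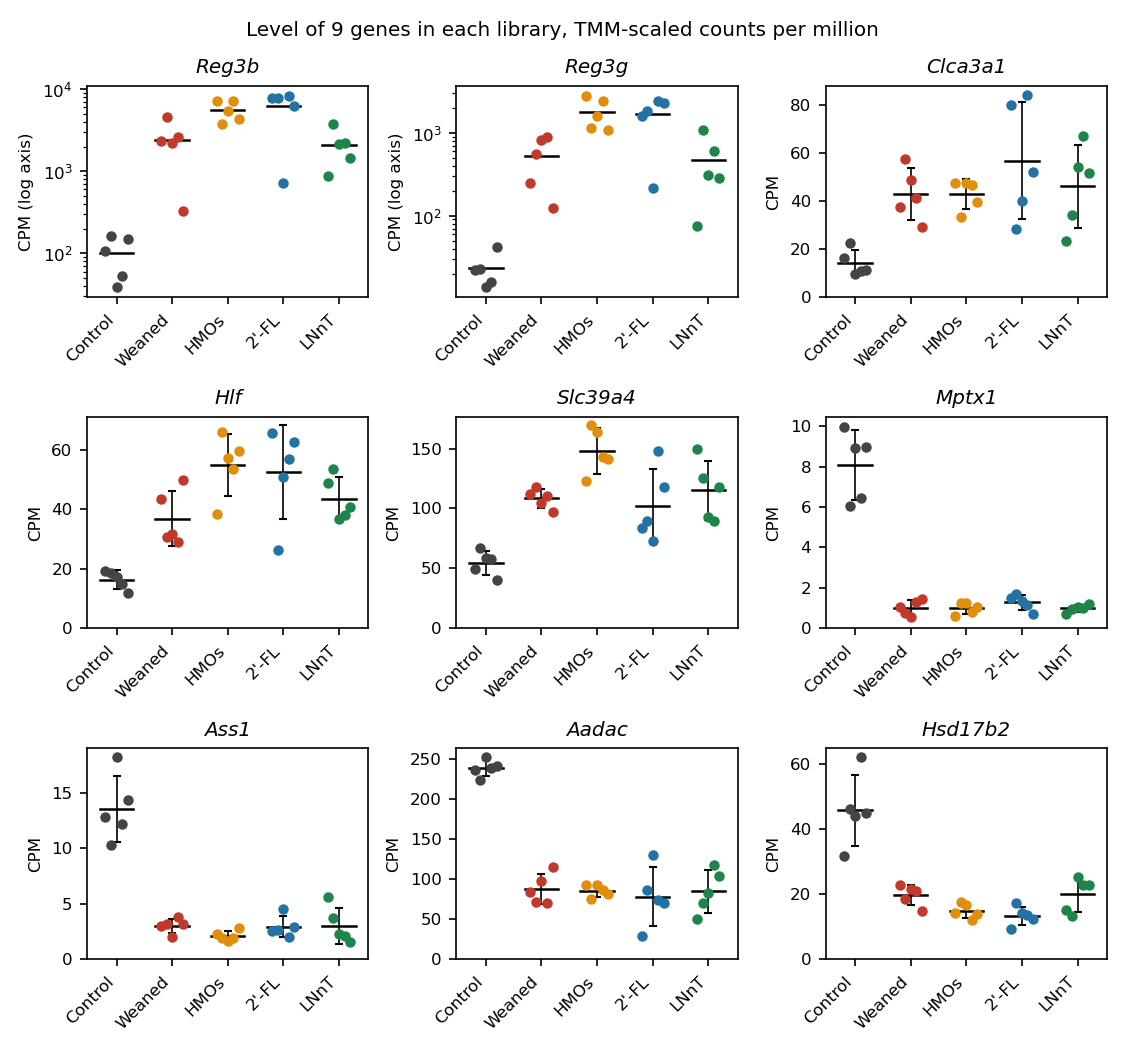
Points are the CPM of 1 gene in each library, by group; horizontal lines are group means and bars are SD (n = 5), with a log axis and no SD for Reg3b and Reg3g and linear axes from 0 for the other 7 genes. In each panel all 20 early-weaned points lie on one side of the 5 control points, above for Reg3b, Reg3g, Clca3a1, Hlf and Slc39a4 and below for Mptx1, Ass1, Aadac and Hsd17b2.

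Among the other 8 shared rises, Slc39a4, which encodes the zinc importer ZIP4 of the enterocyte's luminal face (chr15:76496583-76501584), was at 49.1, 67.1, 58.3, 57.3 and 40.01 CPM in controls. Early-weaned libraries ran from 72.7 through a median of 117.7 to 169.9 CPM, above each control. Its change was 1.11 ± 0.15 (adjusted p = 6.97e-05). Slc39a5, the zinc transporter of the basolateral face, fell by 0.69 ± 0.15 (adjusted p = 0.00579), from 177.1 to 214.6 CPM in controls to between 58 and 164.9 CPM. The other 5 tested zinc and metallothionein genes were not called.

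Prodh, the mitochondrial enzyme that opens proline breakdown, held 48.1 to 76.7 CPM in controls and 97.2 to 155.8 CPM after early weaning (change 1.06 ± 0.12, adjusted p = 9.58e-06). The change was 0.94, 1.14, 1.13 and 1.03 in Weaned, HMOs, 2'-FL and LNnT. Clca3a1, of a family of secreted modulators of chloride channels, rose from 9.39 to 22.7 CPM in controls to 23.5 to 84.0 CPM (change 1.73 ± 0.26). H2-Q10, a class I gene of the major histocompatibility complex, rose from 1.80 to 2.64 CPM to 4.49 to 28.0 CPM (2.23 ± 0.29), and Cyp3a44, a cytochrome P450 gene, from 0.198 to 1.35 CPM to 2.83 to 34.4 CPM (3.74 ± 0.50). Both belong to families of near-identical genes, so their counts are uncertain. Abca14, of the lipid-transporting ABCA family, stayed at 0.401 to 0.965 CPM in controls and 0.955 to 5.21 CPM after early weaning, which made it the only shared gene with overlap. Flywch1, a zinc finger gene, had the smallest shared change, 0.54 ± 0.09 (17.3 ± 1.48 SD CPM in controls, n = 5, and 25.3 ± 2.33 after early weaning, n = 20).

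Hlf, a transcription factor of the PAR bZIP family whose level follows the circadian clock (chr11:90227362-90281721), was the shared rise within the clock list. Its controls held 19.3, 18.5, 17.3, 14.9 and 11.7 CPM, and the early-weaned libraries 26.4, 49.3 and 65.9 CPM at the lowest, median and highest. The groups did not overlap, and the change was 1.51 ± 0.18 (adjusted p = 1.71e-05). Of 19 clock genes tested, 6 were called higher and 18 had positive changes, with a median change of 0.77 against 0.01 over all genes. Beside Hlf they included Per3 (0.93 ± 0.18, without overlap), Per2 (0.77 ± 0.15) and Cry1 (0.89 ± 0.18), repressors of the clock's negative limb, and Ciart (2.63, adjusted p = 0.0493), which alone of these lost its call when single libraries were left out, any 1 of the controls among them (0.0762 to 0.134). By group the median change of the 19 genes was 0.34 in Weaned, 0.53 in HMOs, 0.86 in 2'-FL and 1.18 in LNnT. Of these genes 1 differed among the 4 groups. The positive limb gave 0.48 for Clock (adjusted p = 0.102) and -0.13 for Bmal1 (0.749). The hour at which tissue was taken is not given, and its part in these values was not tested. The clock count stayed between 5 and 7 when any 1 library was left out and was 5, 5 and 2 in the pancreatic and Y-linked fits.

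A gene of arginine synthesis was a shared fall. Ass1, argininosuccinate synthase, which joins citrulline to aspartate on the way to arginine, is known to be active in suckling enterocytes (chr2:31360219-31410684). Controls stood at 12.8, 10.3, 18.2, 12.1 and 14.3 CPM, early-weaned libraries at 1.55, 2.61 and 5.56 CPM for the lowest, median and highest. The highest early-weaned library lay below the lowest control, and the change was -2.31 ± 0.20 (adjusted p = 1.13e-07), from -2.16 in Weaned to -2.68 in HMOs. Of the 11 genes tested in the arginine and citrulline list, 4 fell and Prodh rose. Arg2, the mitochondrial arginase, fell by 0.55 ± 0.11 (adjusted p = 0.00291) from between 589 and 790 CPM to between 287 and 547 CPM. Aldh18a1, which makes the precursor of proline and ornithine, fell by 0.64 ± 0.17 (0.0275), a call lost without Control2, Control3, Control4 or Control5. The count of 4 became 2 without Control3, Control4 or Control5, and was 2, 4 and 2 in the pancreatic and Y-linked fits.

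The shared falls included Aadac, a lipid-cleaving and drug-cleaving deacetylase of the endoplasmic reticulum (chr3:59933138-59947581). Its controls stood at 235.9, 224.3, 252.8, 239.1 and 241.9 CPM. After early weaning it ranged from 28.6 through 83.4 to 130.5 CPM. Its 5 controls spanned less than 29 CPM, and all 20 other libraries lay under them (change -1.51 ± 0.18, adjusted p = 1.66e-05). Cmbl, a cytosolic hydrolase, went from 107.2 ± 8.77 (SD, n = 5) to 46.8 ± 8.06 CPM (n = 20), a change of -1.20 ± 0.10 (adjusted p = 1.13e-07). The microsomal electron carrier Cyb5a, which serves P450 enzymes, fell by 0.92 ± 0.11, Cyp2j9 by 1.08 ± 0.12 and Cyp2c68 by 0.89 ± 0.10.

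Beyond the shared genes, 10 of 17 tested phase I oxidation genes fell over the mean of the 4 groups and 14 had negative changes, with a median of -0.58. The fall was largest in Cyp1a1, which the aryl hydrocarbon receptor (AHR) induces and whose controls varied widely at 22.3, 59.5, 8.55, 45.1 and 206.5 CPM. Early-weaned libraries held 0.302, 1.92 and 12.3 CPM at the lowest, median and highest, and only HMOs2 reached into the range of the controls. The change was -4.83 ± 0.55 (adjusted p = 9.58e-06), and -3.81 without Control5. Cyp2b10, a target of the receptor CAR, fell from between 575.9 and 822.8 CPM to between 180 and 490.8 CPM without overlap (-1.29 ± 0.15). Cyp2c29 (-2.28 ± 0.35) and Cyp2c66 (-1.88 ± 0.28) fell without overlap as well. Among 9 genes of nuclear receptors and of AHR itself edgeR called 0 (1 at an unadjusted p under 0.05; DESeq2 called 1 and limma voom 5). The phase I count stayed between 7 and 11 without any 1 library and was 6, 9 and 6 in the pancreatic and Y-linked fits.

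Among genes of conjugation and ester cleavage, 8 of 22 fell and 18 had negative changes (median -0.40). Ces2a, a carboxylesterase, held 480.8 to 721.3 CPM in controls and 44.7 to 284.9 CPM after early weaning (-2.08 ± 0.30, adjusted p = 0.000184), at -2.02, -2.02, -2.28 and -1.99 in the 4 groups. Ces2b fell by 2.47 ± 0.36, also without overlap. Gstk1, a glutathione transferase of mitochondria and peroxisomes, fell by 0.89 ± 0.17. The count was 6 to 9 without any 1 library and 4, 5 and 4 in the pancreatic and Y-linked fits.

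Hsd17b2, another shared fall, inactivates oestradiol and testosterone by oxidation (chr8:118428643-118485766). It stood at 31.6, 46.0, 43.9, 62.2 and 44.9 CPM in controls. It held 9.17, 15.9 and 25.3 CPM at the lowest, median and highest after early weaning. The groups did not overlap (change -1.46 ± 0.14, adjusted p = 8.19e-07). Dhrs4, a peroxisomal reductase that acts on retinal, fell from 187.1 ± 15.5 (SD) to 84.3 ± 14.7 CPM (-1.15 ± 0.11), and Rdh16f2, of the retinol dehydrogenase 16 family, fell by 1.42 ± 0.14. In the list of retinoid handling, which does not hold these 3 genes, 3 of 14 fell: Rdh7 (-0.85 ± 0.16), Aldh1a2, which makes retinoic acid (-0.66 ± 0.11), and Isx, a transcription factor that restrains carotenoid uptake (-0.63 ± 0.19). Isx was called only narrowly (adjusted p = 0.0399) and not without Control1 (0.0612), Control2 (0.0763), Control3 (0.0999), Control4 (0.0922), Control5 (0.128), Weaned2, Weaned3, HMOs1, HMOs2 or FL5. The count of 3 became 7 without Weaned1 and 5 without FL2 or LNnT3, and was 3, 2 and 1 in the pancreatic and Y-linked fits.

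Of 22 tested genes of fatty acid oxidation, 12 fell and 19 had negative changes, with a median of -0.56 and group medians of -0.49, -0.56, -0.69 and -0.36 in Weaned, HMOs, 2'-FL and LNnT. The count was 11 to 13 without any 1 library, 13 without the 6 libraries with pancreatic transcripts, 11 with the Y-linked covariate and 5 among libraries without Y-linked transcripts. Cyp4a10, a fatty acid hydroxylase that is a marker of PPARA activity in the mouse, held 11, 9.15, 9.78, 10.6 and 8.39 CPM in controls. It held 0.172, 0.928 and 4.57 CPM at the lowest, median and highest after early weaning. That fall left no overlap (-3.11 ± 0.38, adjusted p = 2.05e-05).

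Slc25a20, which carries acylcarnitines into mitochondria, fell by 1.06 ± 0.13 from between 79.2 and 110.3 CPM to between 31.0 and 82.4 CPM, with a small overlap. Hadhb, a subunit of the mitochondrial trifunctional protein, fell by 0.64 ± 0.10 without overlap. Vnn1, a pantetheinase and PPARA target, fell by 1.54 ± 0.24. A peroxisomal member of the pathway that the list does not hold, Hsd17b4 (the bifunctional enzyme of peroxisomal beta-oxidation), was among the 31 shared genes at 390.2 ± 13.5 (SD) CPM in controls and 190.1 ± 40.2 after early weaning (-1.04 ± 0.14). The 17 genes of dietary fat absorption had 8 positive and 9 negative changes, with a median of -0.04. Of these, 3 fell: the fatty acid binding protein genes Fabp2 (-1.02 ± 0.18, without overlap) and Fabp1 (-0.79 ± 0.18), and Apoc3 (-0.89 ± 0.21). Only Fabp2 kept its call without Control3, where the adjusted p was 0.0516 for Fabp1 and 0.0735 for Apoc3; without Control5 it was 0.0578 for Fabp1. The pancreatic and Y-linked fits called 3, 2 and 0 of these genes, and in the last 4 had an unadjusted p under 0.05. The apolipoprotein gene Apoe, which is not in that list, was a shared fall, from 384.5 ± 58.1 (SD) to 204.1 ± 29.0 CPM (-0.92 ± 0.10).

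The remaining shared falls named here belong to no list. Ccs, the copper chaperone of superoxide dismutase, fell by 0.86 ± 0.10, Agt, the precursor of angiotensin, by 1.14 ± 0.13, and Aifm3, a mitochondrial flavoprotein, by 1.28 ± 0.17. Tfec, a transcription factor related to MITF and TFEB, fell by 1.61 ± 0.17 and Taf15, an RNA-binding protein, by 0.65 ± 0.09. Smcp, named for a mitochondrial protein of sperm, held 4.42 to 8.68 CPM in controls and 0 to 0.803 CPM after early weaning (-4.42 ± 0.41), and Mylk3, a myosin light chain kinase known from heart, 7.37 to 10.9 against 0.777 to 3.79 CPM (-2.22 ± 0.23). The predicted gene Gm56555 fell by 1.12 ± 0.14.

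Cholesterol synthesis was the list with the most rises over the mean of the 4 groups, yet it held no shared gene. Of its 20 genes 13 rose and 1, Ebp, fell (a call lost without Control3 or Control5), with a median change of 0.68. By group the medians were 0.98 in Weaned, 1.22 in HMOs, 0.40 in 2'-FL and 0.19 in LNnT, and 6 of the 20 genes (Hmgcs1, Mvd, Fdps, Fdft1, Sqle and Lss) differed among the 4 groups. Fdft1, squalene synthase, differed in this way. Its controls held 16.02, 13.6, 15.1, 11.8 and 16.9 CPM. Weaned libraries held 26.6, 31.5, 31.7, 35.9 and 39.7 CPM and HMOs libraries 38.8, 42.1, 18.9, 53.8 and 41.5, all above the controls. The 2'-FL libraries at 13.9, 10.2, 21.3, 14.7 and 21.9 CPM and the LNnT libraries at 9.40, 13.5, 11.2, 13.5 and 11.97 CPM overlapped with them. The adjusted p among the 4 groups was 0.00086, and the call of the mean (0.61 ± 0.18, adjusted p = 0.0366) was lost without any 1 of the controls (0.0687 to 0.103).

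Lss, which closes the sterol ring, had the largest change of the list, 1.39 ± 0.21 (adjusted p = 0.000236), with 1.74, 1.93, 1.13 and 0.74 in Weaned, HMOs, 2'-FL and LNnT. Controls held 6.59 to 9.78 CPM and early-weaned libraries 9.13 to 40.4 CPM, with a small overlap. Fdps (1.29 ± 0.23) and Mvd (1.00 ± 0.18), enzymes between mevalonate and squalene, followed the same order of groups. Srebf2, the gene of SREBP2, a transcription factor that switches on the genes of this pathway, rose by 0.71 ± 0.14 without overlap and did not differ among the groups past the threshold (0.236). The cholesterol count depended on the controls: it was 8 without Control1, 6 without Control3 or Control4 and 5 without Control5. It was 17 without FL1, LNnT1 and LNnT2, 6 without the 6 libraries with pancreatic transcripts, 5 with the Y-linked covariate and 0 in edgeR among libraries without Y-linked transcripts, where 18 of the 20 changes were positive and 13 genes had an unadjusted p under 0.05. Sqle lost its call without Control3, Control4 or Control5, and Idi1 without Control1, Control3, Control4 or Control5.

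**Figure D3:**
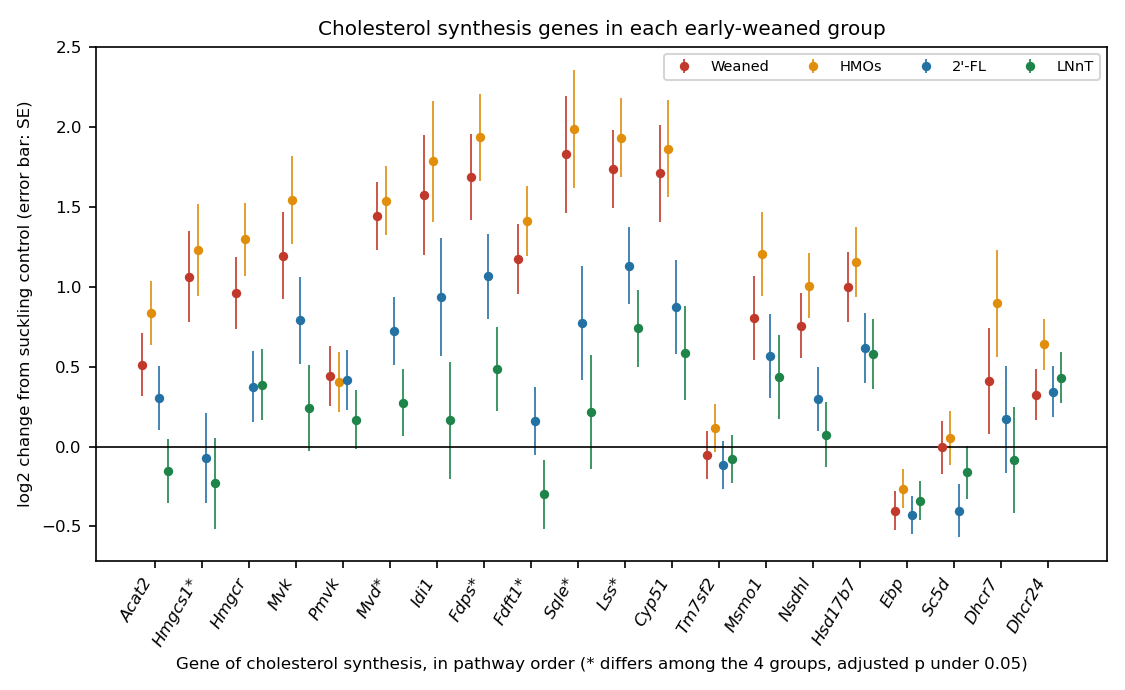
Points are the log2 change from suckling control of each cholesterol synthesis gene in each early-weaned group, with bars of 1 SE, and a star marks genes that differ among the 4 groups. For the 6 starred genes the Weaned and HMOs points lie above those of 2'-FL and LNnT, and the LNnT points of Fdft1 (-0.30) and Hmgcs1 (-0.23) and the 2'-FL point of Hmgcs1 (-0.07) lie below 0.

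Most genes of the list share a motif upstream. The letters CCAAT, the core of the box bound by NF-Y, stood on one strand or the other within 250 bases before the start in 14 of the 15 cholesterol genes with a RefSeq window (93.3%), against 37.5% of all genes with one. Of the other motifs searched on both strands, the sterol element core TCACCCCA was in 1 of the 15 (Hmgcs1; 1.54% of all genes), the E-box CACGTG in 3 (6.86%), and TATAAA and the D-box TTATGTAA in none (14.3% and 0.977%). In clock genes CACGTG was in 5 of 15 (Per1, Cry1, Tef, Bhlhe41 and Ciart). CCAAT was in 10 of the 15 clock genes (66.7%), 7 of 16 fatty acid oxidation genes (43.8%) and 9 of 24 shared genes (37.5%). The 150 bases before the start of 3 genes that rose are shown 5′ to 3′ from RefSeq (GRCm38.p6). CCAAT or its reverse complement ATTGG is in capitals. The windows are Lss at chr10:76531455-76531604 (plus strand), Mvd at chr8:122443423-122443572 (minus strand) and Idi1 at chr13:8885456-8885605 (plus strand).
Lss: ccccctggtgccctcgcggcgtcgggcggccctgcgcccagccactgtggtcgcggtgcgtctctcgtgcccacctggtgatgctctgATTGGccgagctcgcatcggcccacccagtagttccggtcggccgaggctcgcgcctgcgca
Mvd: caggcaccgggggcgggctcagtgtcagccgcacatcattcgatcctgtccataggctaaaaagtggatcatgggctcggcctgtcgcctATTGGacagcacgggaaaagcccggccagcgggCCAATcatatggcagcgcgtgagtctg
Idi1: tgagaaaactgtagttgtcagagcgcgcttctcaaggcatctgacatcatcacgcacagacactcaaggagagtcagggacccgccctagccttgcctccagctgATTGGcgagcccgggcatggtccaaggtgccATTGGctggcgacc
The box begins 62 bases before the start in Lss, 60 and 27 in Mvd, and 45 and 14 in Idi1.

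Rises among genes of weaned-type digestion and of Paneth cells rested on few controls. Of 11 genes of sugar digestion and fructose use, 4 rose and 10 had positive changes. The rises included Sis, sucrase-isomaltase, from between 1475 and 3693 CPM to between 1946 and 8803 CPM (1.26 ± 0.25, adjusted p = 0.00412), Mgam, the maltase-glucoamylase (0.84), and Slc5a1, the glucose transporter SGLT1 (0.62). Sis kept its call without any 1 library. Mgam lost it without Control1, Control3 or Control5, and Slc5a1 without any 1 of the controls and 10 of the other libraries. The count became 1 without Control1, Control3 or Control5 and 2 without Control4, HMOs2 or FL5. It was 1, 1 and 0 in the pancreatic and Y-linked fits, and in the last 4 genes were higher at an unadjusted p under 0.05. Lct, the lactase of the suckling gut, gave -0.31 ± 0.27 (adjusted p = 0.515), from 1649 to 3541 CPM in controls and from 427 to 3248 CPM after early weaning. Of the 9 suckling enterocyte genes only Fcgrt, the receptor that takes up maternal IgG, fell (-0.93 ± 0.13, adjusted p = 0.000111).

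All 13 Paneth cell genes tested had positive changes, against 11168 of all 22131 genes tested. Of the 13, 4 rose: Pla2g2a (1.32 ± 0.22, without overlap), the matrix protease gene Mmp7 (1.22 ± 0.27), Lyz1 (1.03 ± 0.30) and the defensin gene Defa22 (1.11 ± 0.29). The alpha-defensin genes are near-identical, so their counts are uncertain. Defa22 lost its call without Control2, Control3 or Control4, and Lyz1 without any 1 of the controls, Weaned2, Weaned3, Weaned4 or HMOs1. The count was 2 without Control2, Control3 or Control4 and was 2, 3 and 0 in the pancreatic and Y-linked fits; in the last, 7 genes were higher at an unadjusted p under 0.05. All 10 goblet cell genes had negative changes and 2 fell, Tff3 (-0.80 ± 0.21) and Agr2 (-0.73 ± 0.18), both no longer called without Control3 or Control5. The pancreatic and Y-linked fits called 0, 0 and 0 lower, with 2 genes at an unadjusted p under 0.05 in each, while Muc2 gave -0.53 ± 0.32 (adjusted p = 0.32). Of 21 junction genes only Cldn3, a sealing claudin, fell (-0.56 ± 0.12, adjusted p = 0.00582), and Tjp1 (0.33 ± 0.16, 0.212) and Ocln (-0.07 ± 0.15, 0.834) were not called. Lgr5 was the only 1 of 14 stem cell genes called (-0.53 ± 0.12, adjusted p = 0.0146; 0.0594 without Control5). Of 20 cell cycle genes edgeR called 0 (4 at an unadjusted p under 0.05; DESeq2 called 2 and limma voom 5).

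**Figure D4:**
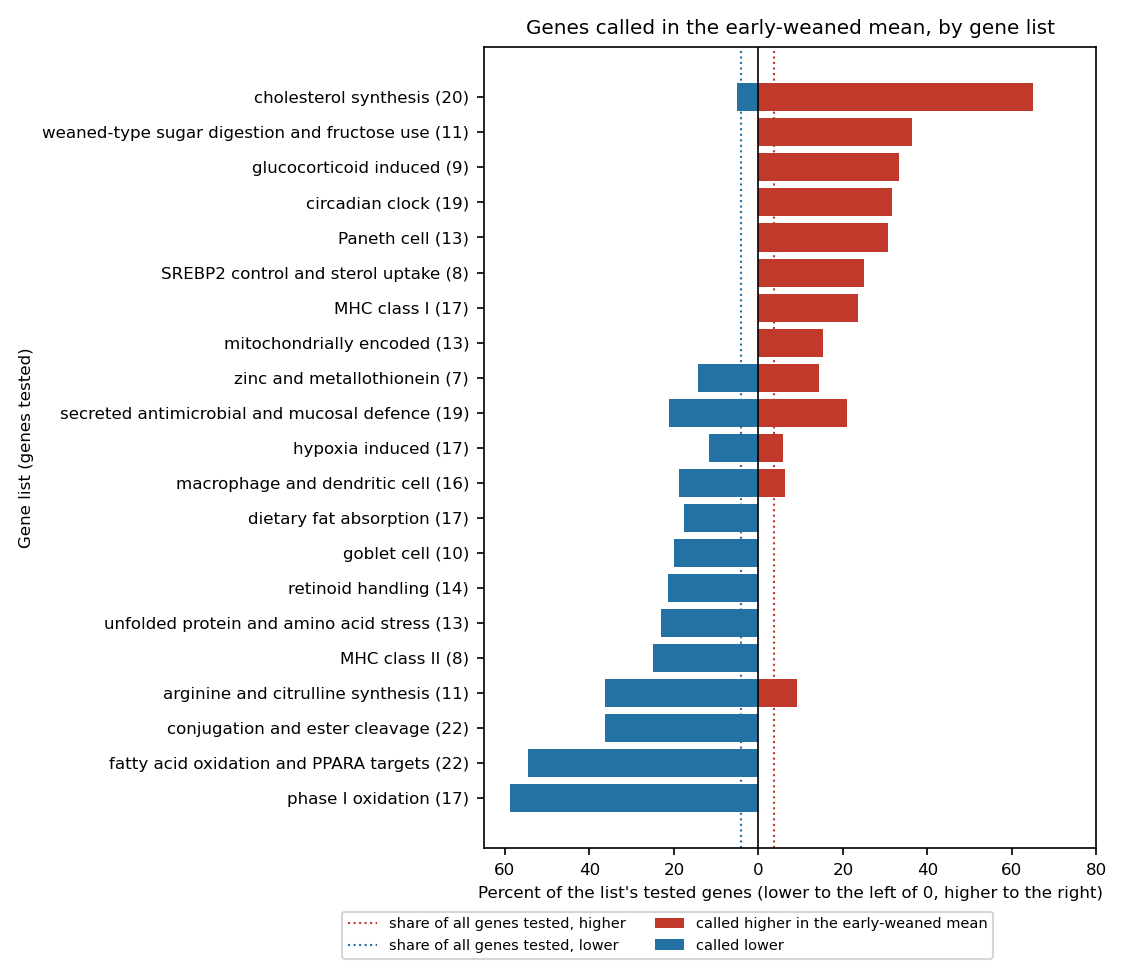
Bars give the percent of each list's tested genes that were called lower (to the left of 0) or higher (to the right) in the mean of the 4 early-weaned groups, for lists with at least 2 calls, and dotted lines give the same share over all genes tested (4.05% lower and 3.63% higher). Cholesterol synthesis reaches farthest to the right with 13 of 20 genes, and phase I oxidation farthest to the left with 10 of 17.

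Of 9 genes induced by glucocorticoids 3 rose: Fkbp5, a chaperone of the glucocorticoid receptor (1.72 ± 0.34, adjusted p = 0.00396), Zbtb16 (2.45 ± 0.69) and Cdkn1a (0.66 ± 0.20). Fkbp5 ranged from 32.2 to 168.7 CPM in controls and from 139.6 to 563.9 CPM after early weaning. Without Control1, Control3, Control4 or Control5 it was the only call of the list, and Cdkn1a was also not called without Weaned3, Weaned4 or HMOs2. Zbtb16, a zinc finger transcription factor, moved to 3.36 without Control2. It held 103.4, 103.1 and 110.8 CPM in FL1, LNnT1 and LNnT2, the libraries that lay apart on the first principal component. The other early-weaned libraries held 2.78 to 32.7 CPM and overlapped with the controls at 0.786 to 11.5 CPM. By group the list's median change was 0.51 in Weaned, 0.56 in HMOs, 0.66 in 2'-FL and 1.17 in LNnT. The pancreatic and Y-linked fits each called 1 gene of the list. Hspa5, Sdf2l1 and Creld2, chaperones of the endoplasmic reticulum, fell by 0.55 ± 0.13, 0.63 ± 0.14 and 0.57 ± 0.12 among 13 genes of the unfolded protein response, and the count of 3 became 1 without Control3 (only Creld2 called) or Control5 (only Sdf2l1), and 2, 1 and 0 in the pancreatic and Y-linked fits (5 lower at an unadjusted p under 0.05 in the last). Among 17 hypoxia genes 12 had positive and 5 negative changes, with a median of 0.18. Of these genes Ankrd37 (-2.08 ± 0.30) and Egln3 (-1.11 ± 0.25) fell and Hk2 rose (0.52 ± 0.12). The falls numbered 1 without the 6 libraries with pancreatic transcripts and 1 with the Y-linked covariate.

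Of 16 macrophage and dendritic cell genes, the complement genes C1qa (-0.70 ± 0.13) and C1qb (-0.62 ± 0.11) and Cd68 (-0.75 ± 0.20) fell, and Cd163 rose (1.08 ± 0.30); Cd68 lost its call without Control3 or Control5 and Cd163 without Control3, Control4 or Control5. The falls numbered 2, 2 and 0 in the pancreatic and Y-linked fits (4 at an unadjusted p in the last). In the MHC class I list 4 of 17 rose, H2-Q10 and, by about 0.4 to 0.5 on the log2 scale, H2-K1, H2-D1 and H2-Q4. H2-K1 lost its call without Control1, Control3, Control4 or Control5, H2-D1 without Control1 or Control5, and H2-Q4 without any 1 of the controls and 11 of the other libraries; the count was 1 without Control1 or Control5 and 2 without Control3 or Control4, and 2, 2 and 1 in the pancreatic and Y-linked fits. Of 8 MHC class II genes 2 fell, H2-Ab1 and H2-Eb1. By group the list's median change was -0.44 in Weaned, -0.05 in HMOs, -0.79 in 2'-FL and -0.68 in LNnT. Neither H2-Ab1 nor H2-Eb1 was called without Control1, Control3, Control4 or Control5. H2-Eb1 also lost its call without Control2 or any 1 of 10 other libraries. The class II falls numbered 1, 0 and 0 in the pancreatic and Y-linked fits, with 4 at an unadjusted p under 0.05 in each of the Y-linked ones. Among 25 interferon-induced genes edgeR called 0 (1 at an unadjusted p under 0.05; DESeq2 called 0 and limma voom 5). Tnf gave -0.60 ± 0.74 (adjusted p = 0.665) and Il1b -0.79 ± 0.62 (0.463), and Il6 was too low to test.

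Over all 22131 genes tested, 70 (0.316%) were called among the 4 early-weaned groups, and 6 to 377 when any 1 library was left out. Of the 1700 genes called in the mean, 10 were also called among the groups. These included Fdft1, Mvd, Fdps, Sqle, Lss, Maged2, Mknk2, Commd10 and Aqp8. Those outside sterol metabolism split the groups in the same pairs or in others. Maged2 fell by 1.00 in both 2'-FL and LNnT and stood at -0.17 in Weaned and -0.44 in HMOs. Mknk2, a kinase of the initiation factor eIF4E, stood at 0.08 and 0.04 in Weaned and HMOs and at 0.47 and 0.54 in 2'-FL and LNnT. Commd10 was at 0.62, 0.70, 0.16 and 0.04 in Weaned, HMOs, 2'-FL and LNnT. The call of the mean was lost without any 1 of the controls for Mknk2 and without Control2, Control3, Control4 or Control5 for Commd10, and for both without several early-weaned libraries. Aqp8, a water channel, was lower than the controls' 1.98 to 3.07 CPM in all 20 early-weaned libraries, at 0.0497 to 1.91 CPM, with changes of -1.39 in Weaned, -3.48 in HMOs, -4.06 in 2'-FL and -1.81 in LNnT (adjusted p among groups 0.0387).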

How the data were processed

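Jejunal poly(A) RNA was made into strand-marked (dUTP) libraries and sequenced as read pairs, per the labels' protocols. The submitters' processing notes name GRCm39 and the tools HISAT2 2.2.1, cutadapt 1.9, edgeR, DESeq2 and StringTie 2.1.6; how shared reads were counted, and the annotation release, are not given in the sources used here. Raw counts per gene, as the authors deposited them, entered every test, and the FPKM table they deposited (scaled by gene length and depth) gave symbols and coordinates. The FPKM table repeats the same counts, with 0 differing values.

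Of 57132 genes, 22131 passed filterByExpr by group and were tested (99.98% of counts). TMM scaling and the fit used edgeR 4.0.16 in R 4.3.3 (robust quasi-likelihood, 1 mean per group, 25 libraries). The 3 contrasts were: the equal-weight mean of the 4 early-weaned groups minus control; the largest of the 4 single p-values where all signs matched; and any difference among the 4 groups. Values after ± are SE for log2 changes and SD for CPM. Alternatives used DESeq2 1.42.0, limma 3.58.1 (voom), other filters and left-out libraries, and scripts were tested on simulated data.

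The members and the 51 lists (631 genes tested) were chosen with earlier results of these data known, and lists got no test. Named genes were up to 12 shared rises and falls of at least 5 CPM without overlap, up to 4 called members of each list with 2 or more calls, a panel of 10, and up to 6 genes differing among groups. The other shared genes, and further list members, were named after their values were seen. Replicate numbers did not pair the libraries. Some genes are counted in the lists but not reported here. RefSeq windows (GRCm38.p6) were matched by symbol. Intervals here cover the spread between libraries only.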

Additional observations from a re-analysis of the deposited data

Results flagged for a closer look

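Values of 43 genes were looked at in each group of 5 libraries, 215 sets in all, for a library far from the other 4. Chance flags about 1 in 20 such sets, and 15 were found. Smcp stood high in HMOs5 (0.756 CPM), FL3 (0.543) and LNnT3 (0.803), all far under the controls. Reg3b was low in FL3 (728.6 CPM, the next 6267) and Cyp3a44 high in FL1 (34.4, the next 11.8). Mvd was low in HMOs3 (6.45 CPM) and Tnf high in LNnT3 (2.22). The junction genes stood apart in Weaned1 and in 2 of the libraries that lay apart on the first principal component: Cldn3 was high (201.1 CPM) and Tjp1 low (61.1) in Weaned1, and Ocln was high in FL1 (203.8) and LNnT1 (210.3). Of the shared falls, Gm56555 was low in FL2 (10.6 CPM), and Ccs (15.7), Cyb5a (120.2) and Cyp2c68 (93.4) in LNnT3.

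Among the genes chosen for naming, 6 differed between the early-weaned groups in the edgeR test of that difference. The adjusted p was 0.00086 for Fdft1, 0.0205 for Mvd, 0.0363 for Fdps and 0.0494 for Lss, in which Weaned and HMOs lay above 2'-FL and LNnT, 0.0357 for Maged2 and 0.0363 for Mknk2.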

How the results depend on the processing

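The analyses called 1700 genes in the mean, 31 shared and 70 differing among the early-weaned groups. DESeq2 gave 2878, 99 and 578, and limma voom 6772, 472 and 431. No filter on low counts gave 28 differing genes. Without FL1, LNnT1 and LNnT2 the shared count was 49 and the differing count 364. Without the 6 libraries with pancreatic transcripts the counts were 658, 7 and 34, and with the Y-linked covariate 612, 13 and 17. Among the libraries without Y-linked transcripts, where Weaned and 2'-FL each have 1 library, assumed to vary like the other groups, edgeR called 256, 0 (176 with the largest p under 0.05 unadjusted) and 969. Leaving out the HMOs group gave 777 and 16, the 2'-FL group 3103 and 120, and the LNnT group 73 shared. An adjusted p under 0.05 in each single comparison gave 99 shared genes. Leaving out each library in turn gave 450 to 3281 in the mean, 16 to 53 shared and 6 to 377 differing. The share of higher calls was 47.2%, and 61.4% in DESeq2, 36.7% with no filter, 33.3% without the 6 libraries and 29.7% without Y-linked ones. The causes were not tested. Replicate numbers did not pair the libraries (10 of 50 same-numbered pairs correlated over 0.1; 5 of 25 libraries matched best with their own number); a replicate block gave 1795, 31 and 10. Of 147 genes followed, not all of them called, none reversed where it was called. When any 1 library was left out, 86 kept their call in the mean without a large move of the change. Cyp1a1 also kept its call but is not counted in the 86, since its change moved from -4.83 to -3.81 without Control5. All 1700 genes kept their direction with RLE scaling and among the libraries without Y-linked transcripts.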
